A study of Mus musculus with 8 samples.

Results

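The genes described here are 2 housekeeping genes, Pfn1 and Rpl32, and the genes that lie beside them on the opposite strand, Eno3 and Cand2. They are 4 of the 49997 genes in a count table of 8 RNA-seq libraries, and each was found by its exact symbol. The 4 genes were chosen by their positions and by the counts measured in these libraries, with earlier results of the same data known. The difference in level within each pair is therefore a description and was not tested, and the tests of change, which were fitted over all genes, are no independent evidence for the choice.

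All 8 libraries came from EO771, a mouse breast cancer cell line, and each group held 2 libraries. In the first experiment, the treatments lasted 48 h and were vehicle, meaning saline with 2% DMSO, or 12-HETE at 100 nM, which is a lipid made from arachidonic acid by 12-lipoxygenase. In the second experiment, cells were transduced with an empty vector or with a vector that overexpressed ADAR1 p150, the interferon-inducible form of an enzyme that edits adenosine to inosine in double-stranded RNA. The study asked how 12-HETE and ADAR1 p150 act on RNA editing and on the interferon response of tumour cells. The promoter of the vector and the number of clones are not given in the sources used here, and the labels do not say whether replicates were separate cultures. The titles number the libraries 4 and 5 in each group of the first experiment, and 1 and 2 in the second. The paper calls the replicates of its editing comparison of these treatments independent experiments, without tying them to these replicate numbers. For the global editing level with 12-HETE, the paper states more independent experiments than the 2 libraries per group used here. P-values measure the spread between these libraries.

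Profilin 1, the product of Pfn1, binds actin monomers and delivers them to growing filaments in nearly every cell. Eno3 encodes the muscle form of enolase, an enzyme of glycolysis that is best known from skeletal muscle. Rpl32 encodes a protein of the large ribosomal subunit, and Cand2 encodes a relative of CAND1, the factor that exchanges substrate adaptors on cullin-RING ubiquitin ligases, and is also best known from striated muscle. Housekeeping genes such as Pfn1 and Rpl32 are usually among the well expressed genes of a growing cell line.

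The total count per library was between 1101767 and 1537037, and both treatments had deeper libraries than their controls. The gene AY036118 took between 44.4% and 50.3% of the counts of each library. At these depths, 3 counts corresponded to between 1.95 and 2.72 CPM (counts scaled by library total), which covers counting error only. Adar had between 2 and 8 counts in the 6 libraries without the ADAR1 p150 vector and 140 and 181 counts in the other two. Of 8 markers of mammary epithelium, Cdh1 was at 0 in every library, and the summed count of the list was between 227 and 422 per library. Of its 5 tested genes, 2 fell with 12-HETE, and with ADAR1 p150 2 rose and 1 fell. By the same test, 29.3% of all tested genes changed with 12-HETE and 25.6% with ADAR1 p150. The summed counts of 6 leukocyte markers were at most 14 and those of 5 markers of fibroblasts and endothelium at most 13.

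In the GENCODE annotation of GRCm38, Pfn1 (ENSMUSG00000018293.4) lies on the minus strand of chr11:70651850-70654644 and Eno3 (ENSMUSG00000060600.15) on the plus strand of chr11:70657202-70662513. The starts of these genes face each other across 2557 bases, and their exons do not overlap. In RefSeq, whose symbols the table uses, the span of Pfn1 reaches 70656799 and that of Eno3 begins at 70653125, so that the genes overlap by 3675 bases. Cand2 (ENSMUSG00000030319.8) lies on the plus strand of chr6:115774538-115805557 and Rpl32 (ENSMUSG00000057841.5) on the minus strand of chr6:115805505-115808747. Here the ends of the genes meet, and their exons overlap by 53 bases in GENCODE, while their spans overlap by 42 bases in RefSeq. The setting for strand in the counting is not given in the sources used here, and a directional and another library kit are named for these cells. Reads of a gene and of RNA from the opposite strand therefore cannot be told apart where annotated genes overlap, and with a directional kit counted on the opposite setting, reads of Pfn1 or Rpl32 that fall in bases shared with the partner would be listed under Eno3 or Cand2. Whether the counts listed for Eno3 and Cand2 hold reads of Pfn1 and Rpl32 was not tested, and every level and change below is that of the count listed under a symbol.

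The promoters of the divergent pair are shown because the starts of Pfn1 and Eno3 lie in the same short interval while their levels differ widely. Each sequence is 300 bases of RefSeq GRCm38.p6 around a transcript start, from 250 bases before it to 50 bases after it, on the strand of the gene, with motif matches in capitals. These starts lie near the GENCODE starts and not at the outer ends of the longer RefSeq spans. The Pfn1 promoter covers chr11:70654601-70654900 on the minus strand, and the Eno3 promoter covers chr11:70656926-70657225 on the plus strand. The table of promoters held an entry for 2 of the 4 genes.
Pfn1: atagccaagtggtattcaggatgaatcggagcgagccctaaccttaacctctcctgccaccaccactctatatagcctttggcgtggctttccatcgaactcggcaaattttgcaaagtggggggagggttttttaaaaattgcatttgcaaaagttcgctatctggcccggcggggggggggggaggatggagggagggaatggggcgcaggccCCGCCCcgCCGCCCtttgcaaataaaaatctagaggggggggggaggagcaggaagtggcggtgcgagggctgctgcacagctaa
Eno3: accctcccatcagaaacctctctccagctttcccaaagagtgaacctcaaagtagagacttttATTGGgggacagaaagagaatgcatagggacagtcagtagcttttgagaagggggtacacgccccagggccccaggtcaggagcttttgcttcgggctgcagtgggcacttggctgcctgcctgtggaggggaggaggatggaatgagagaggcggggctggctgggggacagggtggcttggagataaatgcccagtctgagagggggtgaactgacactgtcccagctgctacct
Capitals in the Pfn1 promoter mark the GC box (GGGCGG, read on both strands), which occurred at 2 places there and at no place in the Eno3 promoter. Capitals in the Eno3 promoter mark the CCAAT box (CCAAT, read on both strands and found here as its reverse complement), which occurred once there and not in the Pfn1 promoter. Neither promoter held the TATA box (TATAAA, both strands). Of the 32851 promoters of this length, 35.7% held the GC box, 37.4% the CCAAT box and 13.6% the TATA box. Both promoters had a GC content of 57.0%, against a median of 52.7% over all promoters. The Pfn1 promoter held 14 CpG dinucleotides and the Eno3 promoter 3, against a median of 7. A match is a description of the sequence and does not show a bound site.

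Eno3 and Cand2 ranked near the top of the table by counts, and the housekeeping genes beside them had few. Summed over the 8 libraries, Eno3 had 72267 counts and ranked 3, and Cand2 had 27913, which ranked 11. Pfn1 had 872 counts and ranked 1199, and Rpl32 had 276 and ranked 2882. The order was the same per kilobase of exon, where Eno3 ranked 5, Cand2 46, Pfn1 870 and Rpl32 1049 among the 5772 tested genes with a GENCODE length.

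The counts of Eno3 were 13622 and 12916 under 12-HETE against 6679 and 6704 under vehicle, and 9423 and 9238 under ADAR1 p150 against 6740 and 6945 under vector. Normalized by TMM, this was 9716 and 9891 CPM against 5718 and 5562 CPM, and 6629 and 6983 CPM against 6153 and 6068 CPM. Both 12-HETE libraries lay above all other libraries, and the ADAR1 p150 libraries lay above the vector libraries by a small margin. In bulk RNA, a change in the share of cells that express a gene and a change in RNA per cell cannot be told apart.

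For Pfn1, the 12-HETE libraries had 155 and 129 counts against 96 and 130 under vehicle, and the ADAR1 p150 libraries had 97 and 84 against 100 and 81 under vector. In normalized CPM, these were 110.6 and 98.8 against 82.2 and 107.9, and 68.2 and 63.5 against 91.3 and 70.8. The vehicle and 12-HETE libraries overlapped, and the ADAR1 p150 libraries were the lowest of the 8, below both vector libraries.

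Cand2 reached 4117 and 3681 counts under 12-HETE against 2920 and 3273 under vehicle, and 3589 and 3659 under ADAR1 p150 against 3418 and 3256 under vector. After normalization the CPM were 2937 and 2819 against 2500 and 2715, and 2525 and 2766 against 3120 and 2845. The 12-HETE libraries lay above the vehicle libraries and the ADAR1 p150 libraries below the vector libraries, with all 8 in a narrow range.

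Rpl32 was counted 58 and 30 times under 12-HETE against 32 and 43 under vehicle, and 41 and 16 times under ADAR1 p150 against 28 in each vector library. Its normalized CPM were 41.4 and 23.0 against 27.4 and 35.7, and 28.8 and 12.1 against 25.6 and 24.5. The highest and lowest libraries were a 12-HETE and an ADAR1 p150 library, each beside a replicate on the other side of the controls' values, so that neither treatment separated from its control.

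**Figure D1:**
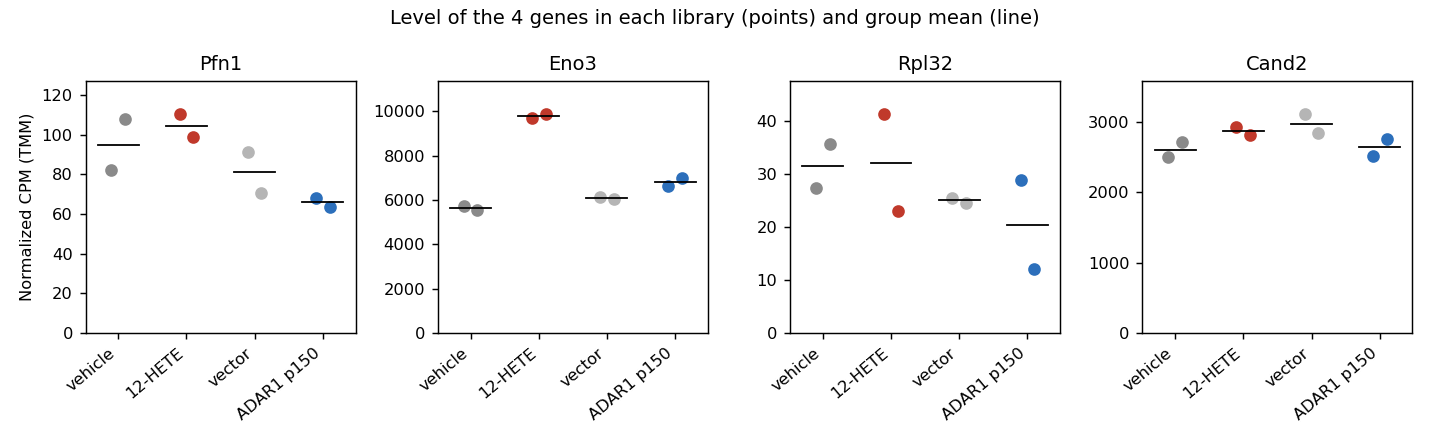
TMM-normalized CPM of Pfn1, Eno3, Rpl32 and Cand2 in each library (points, 2 per group) with the group mean (line), each panel on its own axis from 0. Eno3 in the 12-HETE libraries stands above all other libraries, while Rpl32 replicates are as far apart as the groups.

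With 12-HETE, the count listed for Eno3 rose and its partner Pfn1 was not called. The mean level of Eno3 was 9804 ± 123 CPM with 12-HETE and 5640 ± 110 CPM with vehicle (SD, n = 2 each). The log2 fold change was 0.80 (SE 0.086, 95% interval 0.62 to 0.97), a 1.74-fold rise, with an adjusted p of 3.97e-09 in the quasi-likelihood test of edgeR, adjusted by the Benjamini-Hochberg method over the 6901 genes tested. Over these genes, 11.4% had a higher log2 fold change. Pfn1 was at 105 ± 8.32 CPM with 12-HETE and 95.02 ± 18.1 CPM with vehicle (SD, n = 2 each), a log2 fold change of 0.14 with a 95% interval from -0.19 to 0.47 (edgeR adjusted p = 0.569).

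Neither gene of the other pair was called with 12-HETE. Cand2 was at 2878 ± 83.2 CPM with 12-HETE and 2608 ± 152 CPM with vehicle (SD, n = 2 each), a log2 fold change of 0.14 with a 95% interval from -0.05 to 0.33 (edgeR adjusted p = 0.274). Rpl32 was at 32.2 ± 13.0 CPM with 12-HETE and 31.5 ± 5.85 CPM with vehicle (SD, n = 2 each), a log2 fold change of 0.04 with a 95% interval from -0.57 to 0.64 (edgeR adjusted p = 0.945). Thus 1 of the 4 genes was called, where 29.3% of all tested genes were called in either direction and 15.1% were called higher. None of the 4 passed a 2-fold change as well, where 14.4% of tested genes did. Leaving out 1 library moved the Rpl32 estimate between -0.46 and 0.39 and the Pfn1 estimate between -0.04 and 0.28, and neither passed the test, while Eno3 stayed between 0.71 and 0.82 and passed it each time.

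With ADAR1 p150, none of the 4 genes was called by edgeR, where 25.6% of tested genes were called and 12.8% were called with a 2-fold change. None had an unadjusted p under 0.05 in edgeR, and DESeq2 called 0 of the 4, with 1 at an unadjusted p under 0.05. Eno3 was at 6806 ± 251 CPM with ADAR1 p150 and 6111 ± 59.7 CPM with vector (SD, n = 2 each), a log2 fold change of 0.16 with a 95% interval from -0.02 to 0.33 (edgeR adjusted p = 0.191). Pfn1 was at 65.9 ± 3.35 CPM with ADAR1 p150 and 81.0 ± 14.5 CPM with vector, a log2 fold change of -0.29 with a 95% interval from -0.66 to 0.07 (edgeR adjusted p = 0.244). Cand2 was at 2645 ± 170 CPM against 2983 ± 195 CPM, a log2 fold change of -0.17 with a 95% interval from -0.36 to 0.02 (edgeR adjusted p = 0.186). For Rpl32 the levels were 20.5 ± 11.8 CPM and 25.0 ± 0.774 CPM, and the interval of the log2 fold change, from -0.96 to 0.42 around -0.27, was the widest (edgeR adjusted p = 0.617). Without ADAR1 p150 replicate 2, the Rpl32 estimate was 0.21 in place of -0.27.

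The effects of the treatments on Eno3 differed. The log2 fold change with ADAR1 p150 minus that with 12-HETE was -0.64 (SE 0.12, 95% interval -0.89 to -0.40, adjusted p = 0.000245 in edgeR's quasi-likelihood test of the difference). Of all tested genes, 15.0% were called for this difference, and Eno3 was the 1 gene of the 4 among them. The difference was -0.32 for Cand2 (95% interval -0.59 to -0.04, edgeR adjusted p = 0.111), -0.43 for Pfn1 (interval -0.93 to 0.06, adjusted p = 0.249) and -0.31 for Rpl32 (interval -1.22 to 0.61, adjusted p = 0.719).

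The controls of the experiments, transduced with empty vector or given 2% DMSO, were also compared. None of the 4 genes was called between vector and vehicle by edgeR or DESeq2. Over all tested genes 0.116% were called in this comparison. The log2 difference of vector from vehicle was 0.19 for Cand2, 0.12 for Eno3, -0.23 for Pfn1 and -0.34 for Rpl32, with edgeR adjusted p values of 0.429, 0.618, 0.618 and 0.706. At an unadjusted p under 0.05, 1 of the 4 passed in edgeR and 2 in DESeq2. The experiment and the control used in it cannot be told apart in this comparison.

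**Figure D2:**
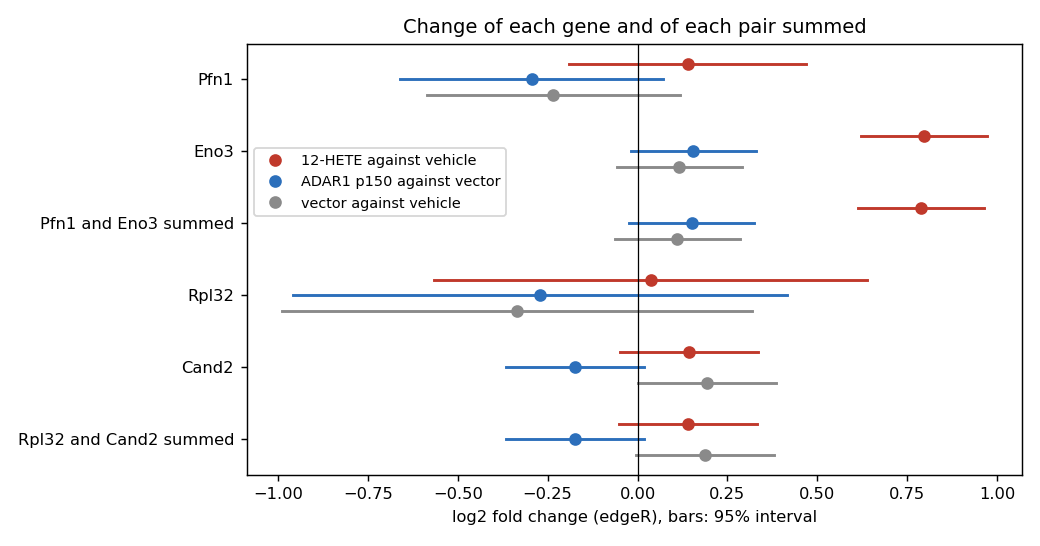
Log2 fold change (points) and its 95% interval (bars) from edgeR for each gene and for the summed counts of each pair, in 12-HETE against vehicle, ADAR1 p150 against vector and vector against vehicle. The intervals of Eno3 and of the Pfn1 and Eno3 sum with 12-HETE lie wholly above 0, and those of Rpl32 are the widest.

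Each pair was also fitted as 1 feature with the counts of both genes added, which cannot tell from which strand the reads came. The sum of Pfn1 and Eno3 rose with 12-HETE by 0.79 on the log2 scale (edgeR adjusted p = 4.69e-09) and had a log2 fold change of 0.15 with ADAR1 p150 (edgeR adjusted p = 0.208). For the sum of Rpl32 and Cand2, the log2 fold changes were 0.14 (edgeR adjusted p = 0.278) and -0.17 (edgeR adjusted p = 0.182). Eno3 and Cand2 supplied nearly all of the counts, so the sums had to move with them and are no separate result.

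Within each library, the ratio of 2 genes does not depend on scaling. The counts of Eno3 were 87.9 and 100.1 times those of Pfn1 under 12-HETE against 69.6 and 51.6 times under vehicle, and 97.1 and 110.0 times under ADAR1 p150 against 67.4 and 85.7 times under vector. Both treated groups lay above both controls of their own experiment. Per kilobase of exon the ratio was between 71.3 and 152 over the 8 libraries.

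The log2 ratio of Eno3 to Pfn1 was higher by 0.65 with 12-HETE and by 0.44 with ADAR1 p150. Over both experiments the difference was 0.55, with a two-sided exact permutation p of 0.0556 over the 36 arrangements of labels within experiments, the smallest p this design allows. Within 1 experiment the 6 arrangements cannot give an exact permutation p under 0.333, which was the value in each. In the 12-HETE experiment the shift went with a higher Eno3 count, and in the ADAR1 p150 experiment neither gene was called.

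The counts of Cand2 were 71.0 and 122.7 times those of Rpl32 under 12-HETE against 91.2 and 76.1 times under vehicle, and 87.5 and 228.7 times under ADAR1 p150 against 122.1 and 116.3 times under vector. The groups overlapped in both experiments, and the widest gap was between the ADAR1 p150 replicates, where Rpl32 had 41 and 16 counts. The log2 ratio differed by 0.21 over both experiments (exact permutation p = 0.667), by 0.16 with 12-HETE and by 0.25 with ADAR1 p150 (exact permutation p = 1.0 for each). Without ADAR1 p150 replicate 2, the difference over both experiments was -0.14. Per kilobase of exon, Cand2 exceeded Rpl32 by between 12.5 and 40.2 times, a smaller gap than by counts because its exons span 5474 bases and those of Rpl32 963.

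**Figure D3:**
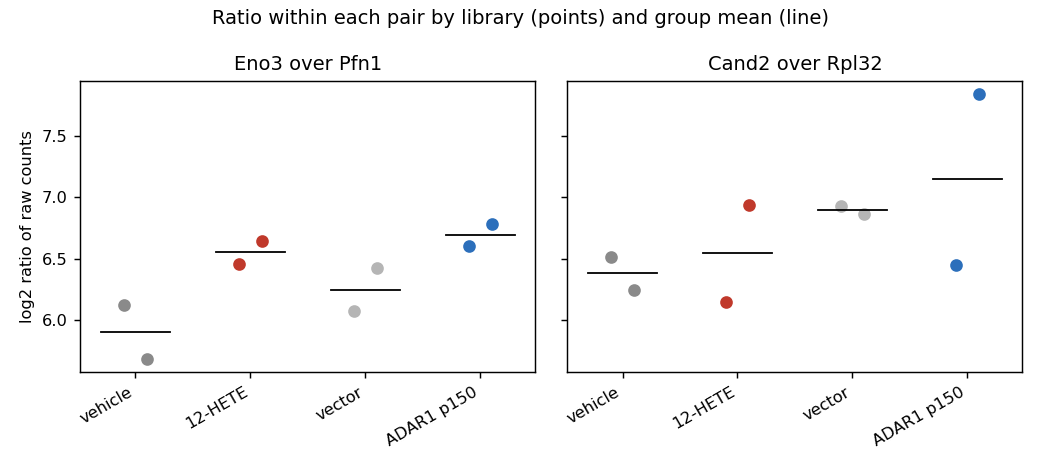
Log2 ratio of raw counts within each pair by library (points) with the group mean (line). For Eno3 over Pfn1 both treated groups lie above their controls, and for Cand2 over Rpl32 the groups overlap, with one ADAR1 p150 library at a ratio of 228.7.

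The ratios were placed among all opposite-strand pairs of tested protein-coding genes in GENCODE, as a description. There were 563 pairs whose exons overlapped by at least 1 base, with a median size of the log2 ratio of 1.57. Cand2 and Rpl32, at 6.66 on the ratio of mean counts, were exceeded by 2 of these pairs (0.355%). There were 487 further pairs that lay within 5 kb without exon overlap, with a median of 1.06. Eno3 and Pfn1, at 6.37, were exceeded by 2 of them (0.411%). This class is that of GENCODE, while the RefSeq spans of Eno3 and Pfn1 overlap. Among the pairs with exon overlap, 4 exceeded them (0.71%).

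The changes of the genes in a pair were compared in the same way. With 12-HETE, the log2 fold changes of Eno3 and Pfn1 lay 0.66 apart, and 38.8% of the pairs within 5 kb lay further apart. With ADAR1 p150, they lay 0.45 apart, and 56.1% of these pairs lay further apart. Among the pairs with exon overlap, these shares were 30.7% with 12-HETE and 44.9% with ADAR1 p150. Cand2 and Rpl32 lay 0.11 and 0.10 apart, and 85.6% and 86.7% of the overlapping pairs lay further apart.

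**Figure D4:**
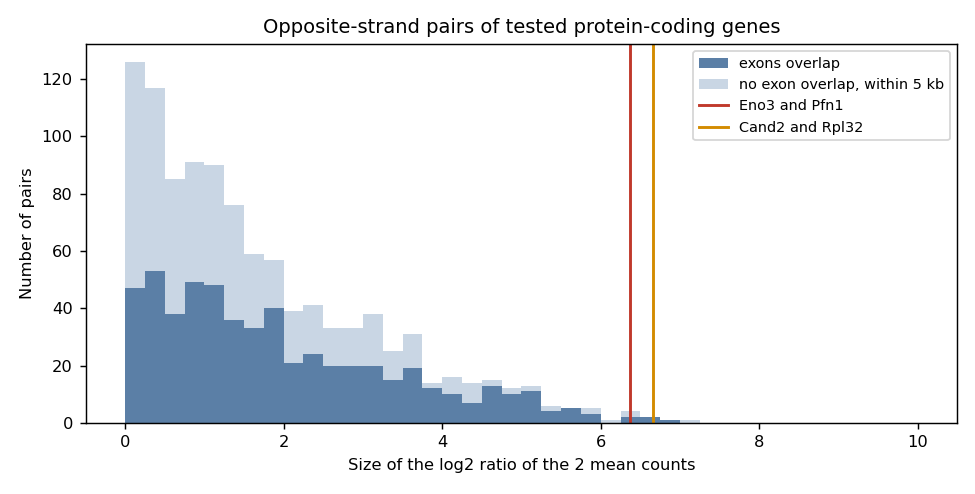
Number of opposite-strand pairs of tested protein-coding genes by the size of the log2 ratio of their mean counts, for pairs whose exons overlap (dark) and pairs within 5 kb without overlap (light). The lines mark Eno3 with Pfn1 at 6.37 and Cand2 with Rpl32 at 6.66, both in the sparse upper tail.

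No other gene near either pair had counts close to those of Eno3 or Cand2. Of 12 other genes within 50 kb of Pfn1 and Eno3, 7 were tested, and the highest mean count was 118.6 for Rnf167, a ubiquitin ligase gene, against 9033 for Eno3. Of 7 other genes within 50 kb of Rpl32 and Cand2, none was tested, and the highest mean count was 7.4, for Efcab12, against 3489 for Cand2. On the Pfn1 side of that pair, Slc25a11, which encodes a mitochondrial carrier, fell by 0.78 with 12-HETE (edgeR adjusted p = 0.0218) and by 0.92 with ADAR1 p150 (edgeR adjusted p = 0.00865) on the log2 scale. Inca1, with a mean count of 16.8, fell by 1.18 with 12-HETE (edgeR adjusted p = 0.0411) and rose by 1.48 with ADAR1 p150 (edgeR adjusted p = 0.00572). The other 5 tested neighbours, Mink1, Gp1ba, Rnf167, Camta2 and Kif1c, were called with neither treatment. Calls among neighbours are read against the shares over all tested genes, 29.3% with 12-HETE and 25.6% with ADAR1 p150.

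**Figure D5:**
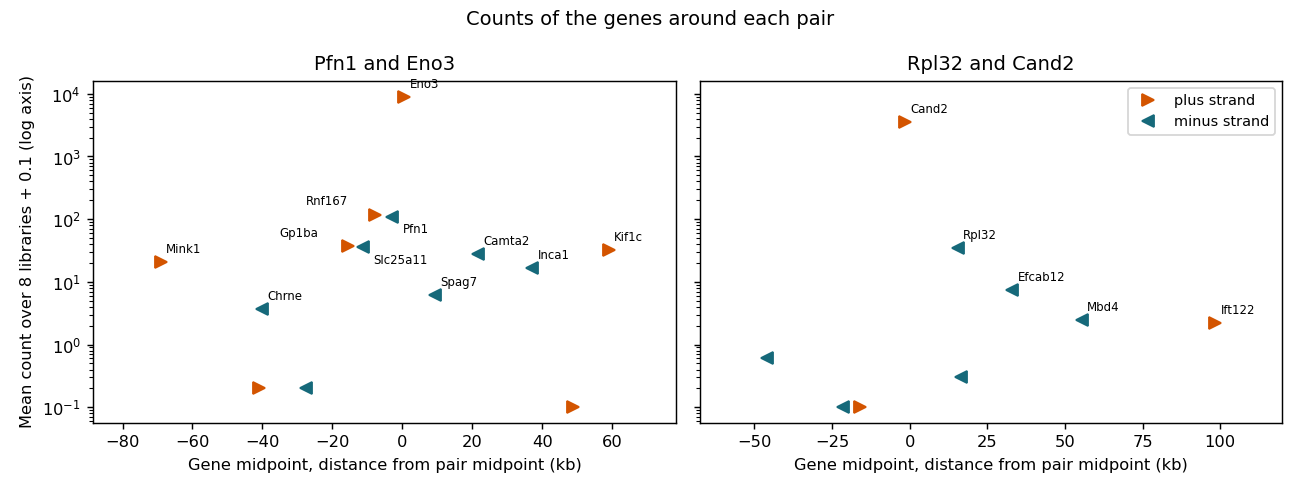
Mean count over the 8 libraries plus 0.1 (log axis) of each gene within 50 kb of the pairs, against the distance of its midpoint from that of the pair in kb, with the strand as the direction of the triangle. Genes averaging 1 count or more are named, and Eno3 and Cand2 stand far above every other gene at their loci.

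The paralogs of the partner genes had few counts. Among the 5 enolase genes, Eno1, the form found in most tissues, had between 25 and 90 counts per library, Eno2, the neuronal form, between 3 and 13, and Eno4 between 7 and 31, while Eno1b was at 0. Eno1 had a log2 fold change of 0.53 with 12-HETE (edgeR adjusted p = 0.0642), and Eno4 rose with ADAR1 p150 by 0.98 (edgeR adjusted p = 0.0493). Pfn2 had at most 10 counts, Pfn4 at most 6, and Pfn3 was at 0. Cand1, the common relative of Cand2, had between 14 and 38 counts. Of the copies of Rpl32 in the table, Rpl32-ps and Rpl32p were at 0 and Rpl32l had 1 count in all. How reads that match several places were counted is not given in the sources used here, so that a count of a gene with such copies is uncertain.

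By the counts listed under their symbols, Eno3 and Cand2 ranked first in their own pathways, and whether these counts hold reads of the opposite strand was not tested. Eno3 had the highest level per kilobase of the 18 glycolytic enzymes, at a mean of 4077 CPM per kb where the next was at 79.6. Cand2 was the highest of the 25 genes for CAND proteins, cullins and neddylation in the table, at 508 CPM per kb where the next was at 25.4. Pfn1, at 36.03 CPM per kb, ranked 2 of the 28 genes for actin monomers and profilin partners, behind Actb, where the median of the list was 3.26. Rpl32, at 28.3 CPM per kb, ranked 13 of the 47 genes for large ribosomal subunit proteins, where the median was 11.9. Among 25 reference genes of RNA assays, Pfn1 ranked 7 and Rpl32 ranked 11.

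Eno3 was 1 of 5 glycolytic enzymes called with 12-HETE. Of the 15 tested, 4 rose and 1 fell with 12-HETE, where 29.3% of all tested genes were called, with a median log2 fold change of 0.31 against 0.00 over all tested genes. Those that rose beside Eno3 were Pfkm (0.92) and Pfkp (0.86), which are forms of phosphofructokinase, and Pkm (0.43), a pyruvate kinase, and Aldoa fell by 0.45. With ADAR1 p150, 8 rose and none fell, where 25.6% of all tested genes were called, with a median of 0.58 against 0.07. These were Hk1, Gpi1, Pfkl, Aldoa, Tpi1, Pgk1, Pkm and Ldha, with log2 fold changes from 0.56 to 1.22, and did not include Eno3.

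Calls in the other lists are read against the same shares, 29.3% with 12-HETE and 25.6% with ADAR1 p150. Of the 34 large ribosomal subunit genes tested, 3 fell with 12-HETE (Rpl10a, Rpl12 and Rplp0) and none rose, and with ADAR1 p150 Rpl10 rose and Rpl12 fell. Of the 16 genes tested for actin monomers and profilin partners, Gsn fell with 12-HETE by 1.03, and with ADAR1 p150 Actb and Capza1 rose and Arpc1b fell. Of the 13 genes tested for CAND proteins, cullins and neddylation, Cul3 rose with 12-HETE (0.81) and with ADAR1 p150 (0.68), Cul1 and Dcun1d5 fell with 12-HETE, and Cops3 fell with ADAR1 p150. Median log2 fold changes with 12-HETE and ADAR1 p150 were -0.06 and -0.06 for the ribosomal list, 0.22 and 0.19 for the actin list, and 0.14 and -0.37 for the cullin list, against 0.00 and 0.07 over all tested genes.

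Among 21 tested reference genes of RNA assays, calls went both ways, and Pfn1 and Rpl32 were not among them. With 12-HETE, 5 rose, among them Ppia, Sdha, Tfrc and Tuba1b, and 4 fell, which were B2m, Rplp0, Rps18 and Eef2. With ADAR1 p150, 3 rose and 2 fell. Between the controls, 1 of the 21 genes had a higher value with vector than with vehicle, the median log2 difference was -0.52, and Actb and Eef2 were called. Of 8 opposite-strand pairs that held 1 of these reference genes, the partner had more counts in 4, which were Gapdh with Iffo1 (2.80 times), Pfn1 with Rnf167 (1.09 times), Pfn1 with Eno3 (82.9 times) and Rpl32 with Cand2 (101 times). Pfn1 with Eno3 and Rpl32 with Cand2 were chosen with their counts known, so the 4 of 8 does not describe reference genes at large.

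Eno3 and Cand2 are known from striated muscle, and most other muscle genes on the list were at or near 0. Of 20 striated muscle markers, 7 were at 0 in all 8 libraries, including Myod1, Myh1, Myh2, Myh4 and Mb, and 14 had at most 1 count in every library. The summed count of the list was 254 and 275 under 12-HETE against 131 and 161 under vehicle, and 250 and 278 under ADAR1 p150 against 138 and 154 under vector. The treated libraries were deeper, and in normalized CPM the sums lay less far apart. They were 194.5 and 196.2 against 108.7 and 137.8 with 12-HETE, and 175.9 and 210.1 against 120.6 and 140.6 with ADAR1 p150. The 4 markers tested were detected in every library, with 22 to 100 counts for Tnnc2, 20 to 58 for Pgam2, 18 to 61 for Atp2a1 and 49 to 95 for Ttn. Of these, Tnnc2, a troponin C gene, rose with 12-HETE by 1.31 and with ADAR1 p150 by 1.00, and Pgam2, a muscle phosphoglycerate mutase gene, rose with 12-HETE by 0.83. Atp2a1 and Ttn were called with neither treatment, where 29.3% of all tested genes were called with 12-HETE and 25.6% with ADAR1 p150. The part of these genes in the levels of Eno3 and Cand2 was not tested.

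The genes whose normalized level was most like that of each member were found by Pearson's r over the 8 libraries among the other genes with at least 100 counts on average (1270 in all), as a description. For Eno3 they were Mroh1 (0.995), Wiz (0.993) and Plppr3 (0.993). For Cand2 they were 4930557K07Rik (0.90), D330050I16Rik (0.88) and 1810019D21Rik (0.86). For Pfn1 they were ND6 (0.89), Kpnb1 (0.88) and Larp1 (0.87), and for Rpl32 they were Rpl18 (0.89), Rps14 (0.88) and Eif4b (0.88). Within the pairs, r was 0.35 for Eno3 with Pfn1 and 0.01 for Cand2 with Rpl32, and it was 0.71 for the housekeeping genes Pfn1 and Rpl32. The 8 libraries share 4 groups and 2 experiments, and the values carry the counting error of their genes.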

How the data were processed

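The authors deposited raw counts per gene for 8 libraries, without normalization. Per the paper's methods, STAR aligned the reads to GRCm38 and featureCounts gave fragments per gene. FastQC and the removal of duplicates with prinseq are stated for the editing analysis of the same treatments, so that counts may not be original read numbers. The labels name a column extraction kit and a SMARTer library kit, and the methods name Trizol and NEB kits. Columns were assigned to groups by the sample titles. The symbols of the table matched RefSeq GRCm38.p6 in 100.0% of cases and GENCODE M21 in 76.0%. Exon lengths and overlaps came from GENCODE M21, and RefSeq exon models were not used here.

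Of 49997 genes, 6901 averaged 10 or more counts per library and were tested. The quasi-likelihood test of edgeR 4.0.16, under R 4.3.3 with limma 3.58.1, was fitted to the 8 libraries together after TMM normalization, with 1 coefficient for each group. Genes were called at a Benjamini-Hochberg adjusted p under 0.05. The SE was the size of a log2 fold change over the square root of F. Pair ratios were tested by exact permutation of labels within experiments, listed in full under Python 3.11.15. On simulated counts of 6901 genes for the 12-HETE comparison, 181 of 200 genes changed 4-fold were called, along with 10 unchanged genes, and 0 genes were called in a comparison without change. The simulation gave every gene the same spread. It does not show how often smaller changes, such as the 1.74-fold rise of Eno3, are found.

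The alternatives tried were DESeq2 1.42.0, RLE factors, a stricter and no minimum count, a fit of the 4 libraries compared, a block for the replicate number, omission of each library or of AY036118, other gene lengths and a 200-base overlap. The crossed block was added after seeing the data. The members, gene lists and tests were chosen with earlier results of these data known. The genes named are the members, their paralogs, list genes called with a treatment, genes within 50 kb of a pair, and the 3 genes most like each member. AY036118, Adar, copies of Rpl32 and single markers were named after their values were seen, as were reference genes with a partner on the opposite strand. The values of 1 listed gene are not reported here.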

Additional observations from a re-analysis of the deposited data

Results flagged for a closer look

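Eno3 responded differently in the experiments. The log2 fold change with ADAR1 p150 minus that with 12-HETE was -0.64, where the log2 fold changes were 0.16 and 0.80, and the test of the difference itself passed (edgeR's quasi-likelihood test, adjusted p = 0.000245). The 12-HETE libraries were higher in 2 of 2 against both vehicle libraries. Groups of 2 libraries are too small to look for single libraries that stand apart.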

How the results depend on the processing

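Over 282 results for the 4 genes and pair sums under another setting, 273 kept their direction and side of the threshold, none gained or lost a call, and 9 changed sign, all for Pfn1 or Rpl32. The pair sums nearly repeat Eno3 and Cand2, so these results are not separate from each other. The Rpl32 log2 fold change with 12-HETE was -0.016 without a minimum count and -0.038 without AY036118. With 1 library left out, it lay between -0.46 and 0.39 with 12-HETE, between -1.04 and 0.21 with ADAR1 p150, and between -1.08 and 0.18 for the difference of effects. The Pfn1 value lay between -0.042 and 0.28 with 12-HETE and between -0.43 and 0.0023 for vector against vehicle. The log2 ratio of Cand2 to Rpl32 differed by between -0.14 and 0.55 over both experiments, between -0.23 and 0.56 with 12-HETE and between -0.44 and 0.94 with ADAR1 p150. Without division by length, the mean log2 ratio was 6.35 for Eno3 over Pfn1, against 6.82 per kilobase, and 6.74 for Cand2 over Rpl32, against 4.23.

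DESeq2 called 1030 genes with 12-HETE, 810 with ADAR1 p150 and 449 for the difference, where edgeR called 2021, 1766 and 1033. Between vector and vehicle DESeq2 called 0 genes, with 232 at an unadjusted p under 0.05, and edgeR called 8, with 795. The edgeR count was 4 with at least 10 counts in every library, 19 with no minimum and 17 without AY036118. The causes were not tested. Fits with no minimum moved the median of all genes for the difference of effects from 0.07 to 0.15.

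With the replicate number as a block, Eno3 remained called with 12-HETE at 0.80 (edgeR adjusted p = 2.15e-06) and for the difference at -0.64 (edgeR adjusted p = 0.00787), and 1788, 1507 and 859 genes were called with 12-HETE, with ADAR1 p150 and for the difference. Same-numbered libraries had correlations of -0.08 and -0.11, so the numbers were not taken as pairs, and a crossed pairing in the ADAR1 p150 experiment called 1858 genes. The depth limits Rpl32 most, at 16 to 58 counts per library.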
